A study of Mus musculus with 30 samples.

Results

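Monocytes that had entered a glioma and carried tumor-derived GFP were compared with the Ly6Chigh monocytes circulating in the blood of mice with the same tumor. The glioma monocytes are the population labelled Ly6CHigh Brain Monocytes GFPpos, from mice 22, 24 and 26, and the reference is the population labelled Ly6CHigh Blood Monocytes, from mice 22, 23 and 24. The comparison was defined by these labels, and earlier results of these data were known when it was chosen. It comprises 7 of the 30 libraries of the series and 6 of its 28 replicates. Mouse 22 gave 2 libraries of GFPpos monocytes, which were summed to 1 replicate. All animals were C57BL6.CCR2RFP/WT mice of 12 to 18 weeks, a strain in which one *Ccr2* allele is replaced by a red fluorescent protein gene. All had been injected in the striatum with GL261.BpalmGFP cells, a mouse glioma line that carries a membrane-anchored GFP. The blood group is therefore tumor-bearing too, and no group of the series is free of tumor. The methods sorted blood cells as CD45high CD115high CD11clow Ly6Chigh. Brain cells were freed from the perfused brain with enzymes at 37 °C and a Percoll step, which blood cells did not pass through, and were sorted as CD45high CD11bhigh and Ly6Chigh cells that carried F4/80. High CD45 and CD11b were meant to separate them from microglia. Brain and blood therefore differ in handling as well as in tissue, and the 2 cannot be told apart. The GFP gate does not tell tumor membrane that a cell has taken up from tumor material attached to it, and the transgene itself was not among the genes counted. The labels give brain as the tissue of all samples, blood included, and the cell type label was followed.

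Ly6Chigh monocytes leave the bone marrow in a CCR2-dependent way, circulate briefly, and enter inflamed or tumor-bearing tissue, where they can take on features of macrophages or dendritic cells. In gliomas such cells are found together with microglia, the resident macrophages of the brain. Glioma cells release vesicles and membrane fragments that neighboring phagocytes take up, and a palmitoylated GFP marks the cells that hold such material.

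RNA was measured as read counts per gene. Counts on genes ranged from 1553616 to 5689644 in the 3 GFPpos replicates and from 1695446 to 4394847 in the 3 blood replicates. Values below are normalized read counts in CPM, which are counts relative to the TMM-scaled library size. They are given in the order of mice 22, 24 and 26 for GFPpos and GFPneg glioma monocytes and of mice 22, 23 and 24 for blood monocytes. With 3 counts per library as the limit that a count of 0 allows, a gene without reads can still be present. The limit, as a mean over the 3 replicates, is 1.26 CPM in GFPpos and 1.36 CPM in blood monocytes. Such limits cover counting error only, since the reads carry no molecular identifiers. The synthetic spike-in RNAs took 0.612% to 5.16% of the counts in GFPpos replicates and 0.29% to 1.26% in blood replicates, and mitochondrial genes took 1.03% to 1.32% and 0.533% to 0.719%. The replicates of GFPpos monocytes were also less alike, with a Spearman correlation across genes of 0.816 to 0.85 against 0.925 to 0.932 among blood replicates. The 2 libraries of mouse 22 had a correlation of 0.663, and 70.45% of their summed counts came from the second. Spike-in RNAs took 8.68% of the counts in the first of them and 1.29% in the second. The first had 6969 genes at 5 or more reads and the second 11777. GFPpos replicate 26 held *Xist* and no Y-linked transcript, and the other 5 replicates held Y-linked transcripts and no *Xist*, so sex is not balanced between the groups.

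RNA levels differed widely between the compartments. At a Benjamini-Hochberg adjusted p under 0.05 in edgeR's quasi-likelihood test, fitted over all 8 populations, 2673 of 11566 tested genes were called (23.1%), of which 1971 were higher in GFPpos glioma monocytes (17%) and 702 were lower (6.07%). These shares are the background against which the counts of each gene group below are to be read. The median log2 fold change over all tested genes was 0.22, with quartiles of -0.61 and 1.33. Called genes that rose had a median log2 fold change of 4.04, or 2.81 when the 565 genes without a read in any blood replicate are set to the lower bound that 3 counts per library allow. Called genes that fell had a median of -1.85, and 8 of them had no read in any GFPpos replicate. In 2318 of the called genes and in 4303 of all tested genes no replicate of one population reached into the range of the other. Scaling to the spike-in RNAs, which were added before reverse transcription, moved the median over all genes by -1.59 to -1.37. Under it 398 of the 1971 genes called higher had a negative log2 fold change, while 0 of the 702 called lower had a positive one. A further 61 of the genes named in the text lost their call under it without a change of direction. The numbers of negative values given for the lists below leave such genes out. The methods put a fixed mass of RNA into each reverse transcription, so spike-in scaling does not report RNA per cell. A rise below is a rise relative to the other transcripts of the cells. In sorted bulk samples fewer cells of a type and less RNA per cell cannot be told apart.

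**Figure D1:**
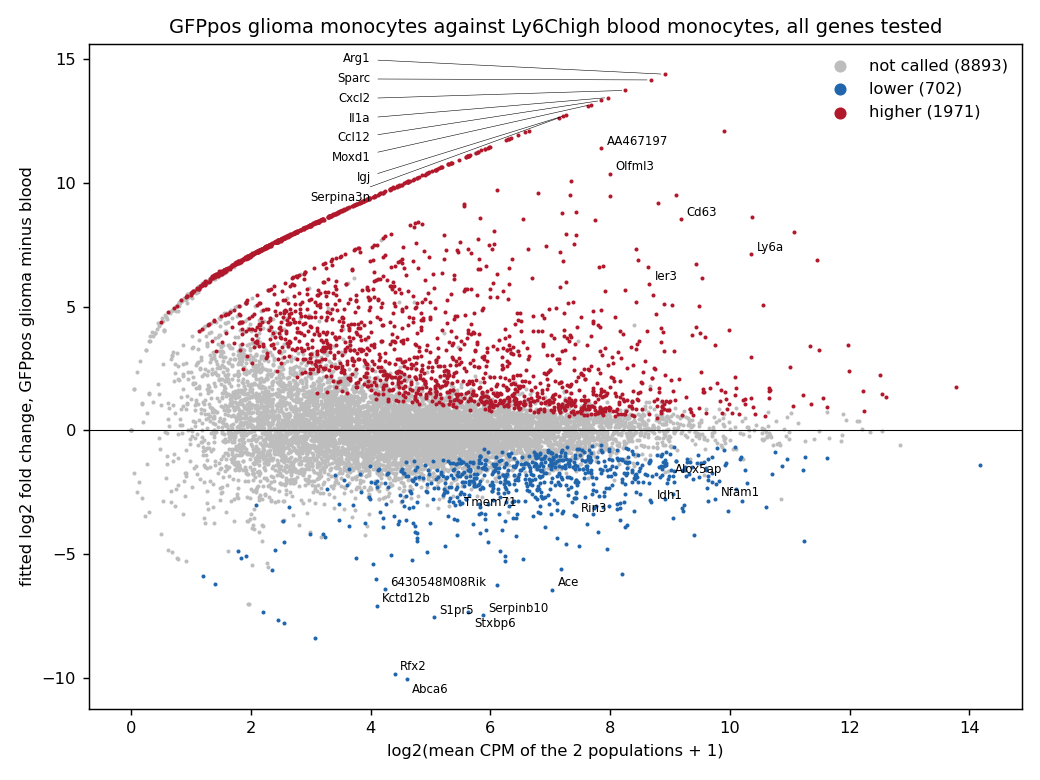
Mean of the GFPpos and blood normalized read counts (x axis, log2 of CPM + 1) against the fitted log2 fold change of GFPpos glioma monocytes minus Ly6Chigh blood monocytes (y axis) for the 11566 tested genes, 1 point per gene, with called genes in red (higher, 1971) or blue (lower, 702), uncalled genes in grey and the genes of the naming rule labelled. The dense upper edge of points is made of genes without a read in blood, for which the fitted value is no measured fold.

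The GFPpos sort held transcripts that serve as markers of other cells of the brain and of the immune system. Some of them were at levels that differed from those in blood, and which cells of the sort held them was not tested. Although the gate was set to leave microglia out, all 8 microglia markers were called higher in GFPpos monocytes, and their summed level was 2624 to 3981 CPM in GFPpos and 185 to 285 CPM in blood replicates. *Tmem119*, a microglial surface protein, measured 632, 935 and 541 CPM in GFPpos and 3.37, 7.03 and 6.9 CPM in blood monocytes (log2 fold change 6.89 ± 0.49, SE, adjusted p = 5.47e-10). The microglial lectin *Siglech* measured 229, 221 and 142 CPM with no read in blood. T and NK cell markers summed to 656 to 1916 CPM against 28.7 to 177 CPM, and 9 of 10 were called higher. One of them, *Gzmb*, a cytotoxic granule protease, measured 247, 426 and 239 CPM in GFPpos and 2.25, 0 and 1.25 CPM in blood. Plasma cell markers summed to 685 to 2426 CPM against 24.6 to 73.6 CPM, with 3 of 5 tested genes called higher. Markers of astrocytes (5 of 5 tested called higher, 51.1 to 119 against 0 to 1.46 CPM), endothelial cells (4 of 5, 42.2 to 470.3 against 18.5 to 47.5 CPM) and neural progenitors and glioma cells (3 of 5, 10.2 to 176 against 1.05 to 3.93 CPM) were present at lower levels. The endothelial sum includes *Ly6c1*, a near copy of the gate gene *Ly6c2*, at 96.9, 21.1 and 265 CPM in GFPpos replicates. In blood *Ly6c1* measured 1.12, 0.586 and 0.627 CPM. With any 1 blood replicate left out 2 or 3 of the astrocyte markers and 1 of the glioma markers were called, as was 1 of the glioma markers without GFPpos replicate 26, and without blood replicate 24 2 endothelial markers were called. Neuron markers summed to 24.9, 0 and 36 CPM in GFPpos and 1.69, 1.76 and 0.836 CPM in blood, and the 1 that was tested, the tubulin gene *Tubb3*, was called higher at 21.4, 0 and 32.3 against 1.69, 1.76 and 0.627 CPM (log2 fold change 3.79 ± 1.22, SE, adjusted p = 0.0254). Its replicates overlapped, since GFPpos replicate 24 had no read. The call was lost without GFPpos replicate 22 or 26 or any 1 blood replicate (adjusted p from 0.0559 to 0.121), and the log2 fold change was 3.09 without GFPpos replicate 26. Among the defining genes, *Rbfox3* of neurons and *Sox9* of neural progenitors had no read in any of the 6 replicates. Oligodendrocyte markers did not separate the groups as a sum (447 to 619 against 468 to 779.9 CPM), since *Mbp*, myelin basic protein, measured 49.6, 118 and 84.8 CPM in GFPpos against 331, 312 and 620.2 CPM in blood and was called lower while 4 others were called higher, 1 of them with a negative value under spike-in scaling. None of the 8 tested neutrophil markers, 5 tested B cell markers or 4 tested erythroid markers was called, although 2 B cell markers were with the mouse as a replicate block. Neutrophil markers summed to 46.5, 2772 and 179 CPM in GFPpos and 657, 163 and 144 CPM in blood, so that GFPpos replicate 24 lay far above the rest. The part of these cells in any gene below was not tested.

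**Figure D2:**
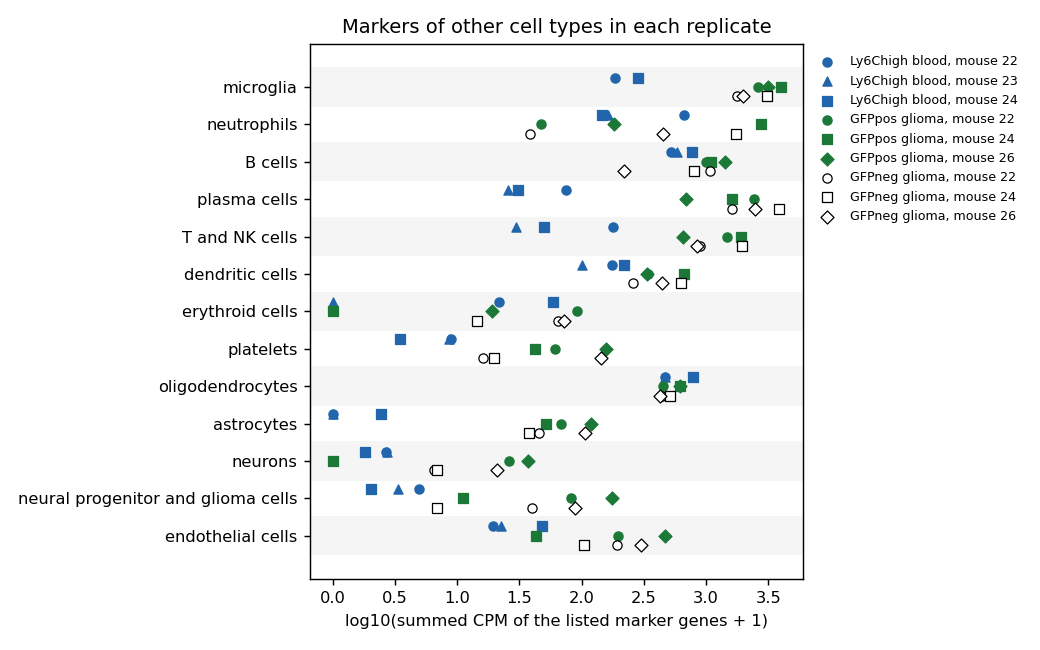
Summed normalized read count of the marker genes of each other cell type (x axis, log10 of CPM + 1) in each replicate of blood (blue), GFPpos (green) and GFPneg (open symbols) monocytes, with a symbol shape per mouse. The 3 GFPpos replicates exceed the 3 blood replicates for microglia (2624 to 3981 against 185 to 285 CPM) and for T and NK cells (656 to 1916 against 28.7 to 177 CPM), and the neutrophil sum is highest in GFPpos replicate 24.

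The largest fitted rises were in genes without a read in blood, for which only a lower bound of the fold is known. By the naming rule these were *Arg1*, *Sparc*, *Cxcl2*, *Il1a*, *Ccl12*, *Moxd1*, *Igj* and *Serpina3n*, each without a read in the 3 blood replicates. Their order is that of the fitted values, and the ratios given below for *AA467197* and *Gpnmb* are larger than any of their bounds. *Arg1* (arginase 1, chr10:24915221-24927484), which splits arginine into ornithine and urea, reached 561, 646 and 1672 CPM, at least 708-fold higher than the floor of blood (adjusted p = 4.66e-06 in edgeR, as for every adjusted p below). *Sparc* (osteonectin, chr11:55394500-55423183), a matrix-binding glycoprotein, reached 746, 575 and 1131 CPM, at least 602-fold higher (adjusted p = 3.91e-11). All GFPpos replicates exceeded the floor of blood by far for both genes, and mouse 26 was the highest for each. *Cxcl2* (chr5:90903871-90905938), a neutrophil attractant, measured 523, 162 and 1143 CPM (at least 449-fold, adjusted p = 4.14e-05). The alarm cytokine *Il1a* (chr2:129299610-129309972) measured 339, 477 and 683 CPM (at least 368-fold, adjusted p = 6.48e-08). The CCR2 ligand gene *Ccl12* (chr11:82101845-82103400) measured 625, 379 and 377 CPM (at least 339-fold, adjusted p = 5.53e-13). *Moxd1* (chr10:24223517-24302790), a monooxygenase of the endoplasmic reticulum, measured 77.1, 49 and 1100.2 CPM (at least 301-fold, adjusted p = 0.00111). The serine protease inhibitor *Serpina3n* (chr12:104406729-104414329), also a marker of reactive astrocytes, measured 233, 19.8 and 632 CPM (at least 217-fold, adjusted p = 0.000936). Both rested mainly on mouse 26, and without it the bounds were 46.5 and 93.1, against 445 for *Arg1* and 252 for *Cxcl2*. *Igj* (Jchain), the J chain that joins polymeric antibodies and is made by plasma cells, measured 401, 432 and 78.4 CPM (at least 224-fold, adjusted p = 9.33e-05), lowest in mouse 26.

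The naming rule also gives the 5 rises with the smallest p-values. *Ly6a* (Sca-1, a GPI-anchored surface protein of the Ly6 family, chr15:74994877-74998031) measured 4004, 2097 and 1695 CPM in GFPpos and 24.2, 17 and 15.7 CPM in blood, a ratio of means of 137 (log2 fold change 7.11 ± 0.34, SE, adjusted p = 1.14e-13). *Cd63* (chr10:128900989-128912822), a tetraspanin of late endosomes and exosomes, measured 1349, 1032 and 1104 CPM against 8.43, 0 and 1.67 CPM, a ratio of 345 (log2 fold change 8.53 ± 0.55, SE, adjusted p = 3.69e-11). *Ier3* (chr17:35821684-35822923), a stress-induced survival gene, measured 978, 645 and 748 CPM against 18, 10.5 and 10.7 CPM, a ratio of 60.5 (log2 fold change 5.93 ± 0.41, SE, adjusted p = 1.26e-10). The groups stood well apart in all 3 genes, and *Ly6a* varied most among the GFPpos replicates. *Olfml3* (chr3:103722222-103738001), a secreted olfactomedin-like protein that is among the microglia markers, measured 539, 432 and 557 CPM and had 3 reads in blood, a ratio of 1453 (counting interval 497 to 7048, adjusted p = 1.22e-12). *AA467197* (chr2:122636986-122641191), the mouse counterpart of the human gene NMES1 and host of a microRNA, measured 735, 375 and 267 CPM and had 1 read in blood, a ratio of 4453 with a counting interval of 799 to 175915 (adjusted p = 1.04e-11). Without blood replicate 22, the log2 fold change of *Cd63* was 9.85.

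The genes with the largest fitted falls were at or near 0 CPM in GFPpos monocytes. *Ace* (angiotensin-converting enzyme, chr11:105967945-105989964) measured 3.67, 0 and 4.13 CPM in GFPpos against 379.8, 105 and 289 CPM in blood (log2 fold change -6.45 ± 1.02, SE, adjusted p = 4.68e-05). *S1pr5* (chr9:21242912-21248443), a sphingosine-1-phosphate receptor used in the exit of cells from marrow, had 3 reads in GFPpos monocytes and measured 87.1, 25.8 and 80.3 CPM in blood, a blood to GFPpos ratio of 212 (counting interval 72.3 to 1033, adjusted p = 0.00226). The groups did not overlap for either gene. No GFPpos replicate had a read of *Abca6* (chr11:110176820-110251776), a lipid transporter of the ABC family, or of *Rfx2* (chr17:56775897-56831013), a transcription factor. They measured 42.1, 42.8 and 54.8 and 16.9, 44.5 and 59.8 CPM in blood, which makes them at least 36.9-fold and 32-fold lower (adjusted p = 0.0022 and 0.00283). *Serpinb10* (chr1:107529003-107549271), a serpin of myeloid cells, fell from 112, 119 and 112 to 0.408, 1.36 and 0.375 CPM (adjusted p = 6.88e-05) and *Stxbp6* (chr12:44852484-45074709), which binds SNARE proteins, fell from 67.4, 102 and 121 to 0, 1.36 and 0.751 CPM (adjusted p = 0.00146). *6430548M08Rik* (chr8:120114152-120165306) had 3 reads in GFPpos monocytes and measured 32.6, 39.2 and 34.1 CPM in blood (adjusted p = 0.000348). The last gene of the rule, *Kctd12b* (chrX:153685154-153696391), had 2 reads in GFPpos monocytes and 19.7, 16.4 and 60.4 CPM in blood (adjusted p = 0.0255), and its call was lost without GFPpos replicate 22, 24 or 26 or blood replicate 24 (adjusted p from 0.0625 to 0.0846).

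The 5 falls with the smallest p-values were smaller in size. *Idh1* (chr1:65158616-65186500), the cytosolic NADP-dependent isocitrate dehydrogenase, measured 101, 105 and 84.8 CPM in GFPpos and 676, 760.3 and 736 CPM in blood (log2 fold change -2.90 ± 0.33, SE, adjusted p = 4.36e-07). *Nfam1* (chr15:82992973-83033306), a receptor with an ITAM motif, measured 223, 276 and 157 against 1485, 1597 and 1447 CPM (log2 fold change -2.79 ± 0.34, SE, adjusted p = 1.43e-06). *Rin3* (chr12:102283048-102390855), an exchange factor for Rab5 in endocytosis, measured 53.4, 49.7 and 32.3 against 262, 322 and 308 CPM (log2 fold change -2.72 ± 0.32, SE, adjusted p = 6.64e-07). In each of the 3 the lowest blood value was more than 4 times the highest GFPpos value. *Tmem71* (chr15:66526212-66561103) measured 16.3, 23.8 and 23.6 against 149, 163 and 146 CPM (log2 fold change -2.85 ± 0.36, SE, adjusted p = 2.26e-06). *Alox5ap* (chr5:149264767-149288153), which presents arachidonic acid to 5-lipoxygenase for leukotriene synthesis, measured 318, 185 and 155 against 793, 917 and 676 CPM (log2 fold change -1.86 ± 0.24, SE, adjusted p = 2.67e-06).

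The gate genes were present in both groups. *Csf1r*, which codes for the CD115 of the blood gate, measured 2687, 3434 and 2487 CPM in GFPpos and 3408, 3588 and 3694 CPM in blood (adjusted p = 0.403). *Ly6c2* measured 3183, 1581 and 1217 and 964, 1273 and 1291 CPM (adjusted p = 0.29). *Itgam*, the CD11b of the brain gate, measured 339, 651 and 736 and 522, 566 and 1144 CPM (adjusted p = 0.68). *Adgre1*, which codes for F4/80, measured 474, 481 and 261 and 391, 501 and 426 CPM (adjusted p = 0.8). The ranges of all 4 overlapped, and none passed the test. Reads that match both *Ly6c2* and its near copy *Ly6c1* can be lost or misassigned in counting. *Itgax* was called higher, at 374, 349 and 179 against 43.3, 2.93 and 16.9 CPM, but its product CD11c was gated low in blood and not gated in brain, and for this gene gate and tissue cannot be told apart. *Ptprc* (CD45), which both gates used, was called lower, at 775, 851 and 511 against 1431, 1251 and 2062 CPM (log2 fold change -1.15 ± 0.24, SE, adjusted p = 0.000876).

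Of the 14 gate and identity genes 4 were called higher, 5 lower and 5 did not pass the test, with a median log2 fold change of -0.21 against 0.22 over all genes, and without GFPpos replicate 26 the number lower was 3. *Ccr2*, the receptor that draws monocytes out of the marrow and into tissue, measured 351, 229 and 273 CPM in GFPpos and 1890.4, 2384 and 1906 CPM in blood (log2 fold change -2.86 ± 0.51, SE, adjusted p = 0.000198). The lowest blood value was more than 5 times the highest GFPpos value, and 1 functional allele was left in both groups. *Treml4*, a TREM-like receptor of monocytes, measured 53.4, 20.4 and 11.3 against 586, 167 and 192 CPM (log2 fold change -3.44 ± 0.78, SE, adjusted p = 0.00205). Besides *Itgax*, 3 genes of the list rose. *Cd14*, a lipopolysaccharide co-receptor, measured 1276, 779 and 1659.8 against 99.996, 112 and 48.5 CPM (log2 fold change 3.84 ± 0.71, SE, adjusted p = 0.000277). *Fcgr1*, the CD64 of macrophages, measured 753, 484 and 512 against 141, 188 and 118 CPM (log2 fold change 1.97 ± 0.24, SE, adjusted p = 1.49e-06). *Mertk*, a receptor for apoptotic cells, measured 50.4, 104 and 89.7 against 0, 0 and 2.3 CPM (log2 fold change 6.11 ± 0.69, SE, adjusted p = 4.36e-07). *Cx3cr1*, the fractalkine receptor, measured 463, 1048 and 489 against 677, 534 and 881 CPM and did not pass the test (adjusted p = 0.921). The log2 fold change of *Treml4* was -4.40 without GFPpos replicate 22 and -2.73 without blood replicate 22. All blood reads of *Mertk* were in replicate 24, and the fitted value was 10.79 without it.

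Genes that hold leukocytes to vessels or guide them in circulation fell or did not pass the test. Of 16 such genes 8 were called lower, 0 higher and 8 did not pass the test, with a median log2 fold change of -1.52. *Itgb7*, an integrin β chain, measured 119.9, 88.5 and 148 CPM in GFPpos and 847, 1281 and 1022 CPM in blood (log2 fold change -3.14 ± 0.55, SE, adjusted p = 0.000163), and its partner *Itga4* measured 92, 47 and 56.7 against 283, 268 and 682 CPM (log2 fold change -2.65 ± 0.51, SE, adjusted p = 0.000423). *Itgal*, the α chain of LFA-1, measured 192, 248 and 117 against 762, 641 and 997 CPM (log2 fold change -2.11 ± 0.35, SE, adjusted p = 8.45e-05). *Cd44*, the hyaluronan receptor, measured 232, 306 and 238 against 545, 706 and 846 CPM (log2 fold change -1.44 ± 0.30, SE, adjusted p = 0.00118). In none of these genes did the groups overlap. The shared β2 chain *Itgb2* measured 1712, 1404 and 799.9 against 1693, 1692 and 1727 CPM (adjusted p = 0.315). The P-selectin ligand *Selplg* measured 1236, 1454 and 733 against 1111, 1435 and 1211 CPM (adjusted p = 0.793). Neither passed the test.

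**Figure D3:**
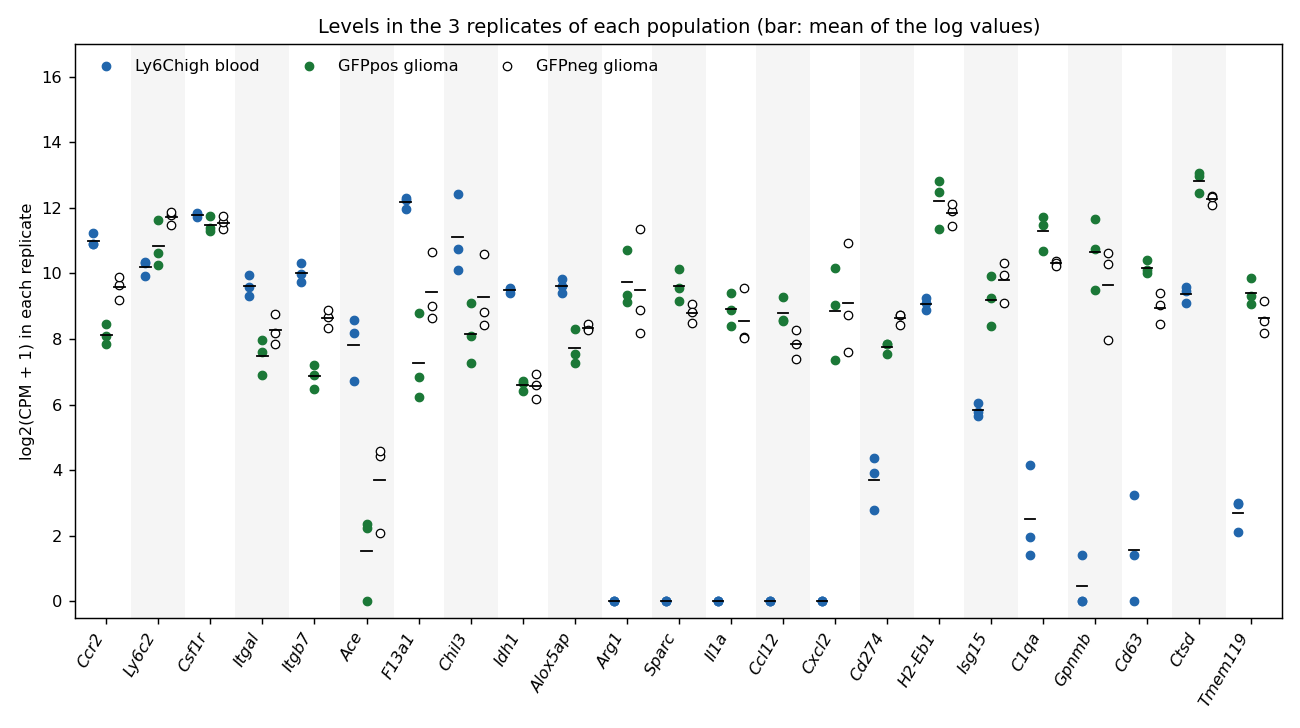
Normalized read count (y axis, log2 of CPM + 1) of 23 selected genes in each replicate of blood (blue, mice 22, 23 and 24), GFPpos (green, mice 22, 24 and 26) and GFPneg monocytes (open, mice 22, 24 and 26), with a bar at the mean of the log values. *Ccr2* lies at 351, 229 and 273 CPM in GFPpos and at 1890.4, 2384 and 1906 CPM in blood, while *Arg1*, *Sparc*, *Il1a*, *Ccl12* and *Cxcl2* have no read in blood.

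Of 19 transcription factors of the monocyte lineage 12 did not pass the test, 4 were called higher (1 of them negative under spike-in scaling), beside 17% of all tested genes, and 3 lower, beside 6.07%. Their median log2 fold change was -0.03. *Maf*, a leucine zipper factor, measured 86.9, 48.4 and 39 CPM in GFPpos and 12.4, 5.86 and 10.5 CPM in blood (log2 fold change 2.60 ± 0.56, SE, adjusted p = 0.00128). *Bhlhe40*, a repressor that restrains *Il10* among other targets, measured 561, 742 and 579.5 against 102, 35.7 and 54.6 CPM (log2 fold change 3.30 ± 0.43, SE, adjusted p = 3.96e-06). Both factors rose in every GFPpos replicate above every blood replicate. *Irf5*, a factor of inflammatory gene induction, fell from 898, 1172 and 1197 to 401, 735 and 352 CPM (log2 fold change -1.14 ± 0.29, SE, adjusted p = 0.00509). *Pou2f2* fell from 79.2, 48.6 and 101 to 24.3, 8.17 and 7.51 CPM (log2 fold change -2.48 ± 0.55, SE, adjusted p = 0.00175). *Irf8*, which monocytes and microglia both need, measured 333, 1069.9 and 483 against 572, 648 and 704 CPM (adjusted p = 0.97). *Nr4a1*, the factor of Ly6Clow conversion, measured 290.2, 420.2 and 606 against 810.1, 359 and 521 CPM and did not pass the test (adjusted p = 0.684), but passed it with the mouse as a replicate block (log2 fold change -0.96, adjusted p = 0.0127). For *Pou2f2* the log2 fold change was -3.37 without GFPpos replicate 22.

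Chemokines were among the genes with the largest fitted rises. Of 12 CC chemokines 10 were called higher, 1 lower and 1 did not pass the test, with a median log2 fold change of 8.35, or 6.62 with the 5 genes without a read in blood at their bound. Of 10 CXC chemokines 9 were called higher and 1 did not pass the test, with a median of 7.13, or 5.59 with such genes at their bound. The monocyte attractants *Ccl2* and *Ccl7*, both ligands of CCR2, measured 595, 225 and 510.1 and 297, 199.5 and 346 CPM in GFPpos monocytes, against 0.562, 4.69 and 7.11 CPM and no read in blood (adjusted p = 6.52e-09 and 1.6e-09). The inflammatory chemokines *Ccl3* and *Ccl4* measured 295, 338 and 371 and 775, 933 and 942 CPM against 2.25, 0 and 2.51 and 0.562, 1.17 and 2.09 CPM (log2 fold changes 7.51 ± 0.95 and 9.19 ± 0.70, SE; adjusted p = 2.52e-06 and 7.33e-10). The 2 were even across mice, and microglia also make them. *Cxcl9* and *Cxcl10*, interferon-induced ligands of the T cell receptor CXCR3, measured 1222, 647 and 189.9 and 1552, 824 and 664 CPM against 0, 8.79 and 3.97 and 12.4, 25.8 and 50.2 CPM (log2 fold changes 7.34 ± 0.82 and 5.07 ± 0.77, SE; adjusted p = 3.43e-07 and 2.69e-05). Both were lowest in mouse 26. *Cxcl16*, a transmembrane chemokine, rose from 29.2, 11.1 and 15.7 to 630.1, 1269 and 575 CPM (log2 fold change 5.47 ± 0.61, SE, adjusted p = 3.43e-07). *Ccl17* and *Ccl22*, ligands of CCR4 made by dendritic cells and alternatively activated macrophages, measured 41.4, 85.8 and 13.9 and 119, 210.4 and 24.4 CPM with no read in blood (adjusted p = 3.81e-06 and 2.64e-05). *Ccl5*, which T and NK cells make as well, rose from 59, 8.79 and 13.8 to 1666, 906 and 223 CPM (log2 fold change 5.12 ± 0.75, SE, adjusted p = 1.76e-05) while the T and NK cell markers rose in the same replicates. Leaving out blood replicate 24 gave log2 fold changes of 8.14 for *Ccl3*, 9.93 for *Ccl4* and 5.73 for *Cxcl10*. That of *Cxcl9* was 6.55 without GFPpos replicate 22, 6.74 without blood replicate 22 and 7.98 without blood replicate 23, and that of *Ccl5* was 4.33 without GFPpos replicate 22 and 6.23 without blood replicate 22.

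*Cxcl1* and *Cxcl3*, which lie beside *Cxcl2*, measured 55.5, 8.17 and 391 and 2.65, 2.72 and 209 CPM with no read in blood, and both rested on mouse 26. Without it neither was called (adjusted p = 0.0547 and 0.274), and the calls were also lost without blood replicate 24 (adjusted p = 0.0674 and 0.12) and, for *Cxcl3*, without blood replicate 22 or 23 (0.0874 and 0.0923). The exception among CC chemokines was *Ccl6*, abundant in resting monocytes, which fell from 2834, 2994 and 1921 to 569, 679 and 1028 CPM (log2 fold change -1.77 ± 0.51, SE, adjusted p = 0.0129). *Ccl9*, the neighbor of *Ccl6*, measured 217, 221 and 583 against 1077, 1327 and 1139 CPM and did not pass the test (adjusted p = 0.0705), but fell with the mouse as a replicate block (log2 fold change -2.29, adjusted p = 1.56e-05).

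A binding sequence of NF-kB, a factor through which inflammatory signals are known to act on chemokine genes, lies before some of these genes. The NF-kB consensus was searched on both strands in the 250 bases before the start of each RefSeq gene (GRCm38.p6). It was found in 5 of 16 listed chemokines with a promoter entry (31.2%), in 4.46% of all 26977 promoters and in 5.44% of those of tested genes. Among all genes called higher the share was 6.48%. In the other lists searched it ran from 16.7% (hypoxia response) to 37.5% (MHC class I), so it is not particular to chemokines. A match is a run of letters, not a measured site. The 30 bases around the match are shown for 4 chemokines that rose and for *Nfkbia*, the inhibitor of NF-kB, with the consensus in capitals and each read 5′ to 3′ on the strand of its gene.

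Cxcl1 (chr5:90891165-90891194, plus strand, GRCm38.p6): ctgtactccgGGAATTTCCCtggcccggag
Cxcl2 (chr5:90903793-90903822, plus strand, GRCm38.p6): ctgagctcagGGAATTTCCCtggtccccgg
Cxcl3 (chr5:90786019-90786048, plus strand, GRCm38.p6): agctgcggggGGAATTTCCCcagcccgggc
Cxcl10 (chr5:92348973-92349002, minus strand, GRCm38.p6): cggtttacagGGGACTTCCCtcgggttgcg
Nfkbia (chr12:55492657-55492686, minus strand, GRCm38.p6): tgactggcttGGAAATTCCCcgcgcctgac

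The runs of *Cxcl1*, *Cxcl2* and *Cxcl3* are the same 10 letters, and the flanks differ. Of the 12 NF-kB subunits and inhibitors 4 were called higher, 2 lower and 6 did not pass the test, with a median log2 fold change of -0.11. Without blood replicate 24 the number higher was 2, and with any 1 replicate left out, or with the mouse as a replicate block, the number lower was 1. The 4 that rose code for inhibitor proteins or feedback regulators, and 1 of them had a negative value under spike-in scaling. *Tnfaip3*, the deubiquitinase A20, measured 201, 253 and 615 CPM in GFPpos and 14, 32.8 and 49.5 CPM in blood (log2 fold change 3.45 ± 0.73, SE, adjusted p = 0.00118). *Nfkbiz* measured 119, 62.7 and 538 against 15.7, 8.2 and 24.2 CPM (log2 fold change 3.86 ± 0.70, SE, adjusted p = 0.00023). *Nfkbia* measured 611, 1235 and 1590.00 against 418, 387 and 277 CPM (log2 fold change 1.67 ± 0.46, SE, adjusted p = 0.00922). The call of *Nfkbia* was lost without blood replicate 24 (adjusted p = 0.057). The subunit *Nfkb1* measured 80.3, 121 and 34.2 against 291, 170.5 and 213 CPM and was called lower (log2 fold change -1.53 ± 0.44, SE, adjusted p = 0.0129), a call lost without GFPpos replicate 26 (adjusted p = 0.0697). *Rela* measured 175, 124 and 85.6 against 167, 172 and 137 CPM (adjusted p = 0.461). Without GFPpos replicate 26 the log2 fold changes of *Tnfaip3* and *Nfkbiz* were 2.80 and 2.47.

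Chemokine receptors other than *Ccr2* rose or did not pass the test. Of 11 genes 5 were called higher (3 without blood replicate 24), 1 lower and 5 did not pass the test, with a median log2 fold change of 1.33. *Ccrl2*, an atypical receptor that presents chemerin, measured 1562, 1132 and 1400.1 CPM in GFPpos and 16.9, 12.9 and 9.2 CPM in blood (log2 fold change 6.74 ± 0.62, SE, adjusted p = 1.66e-08). *Ccr1* measured 975, 890.1 and 640.4 against 266, 265 and 83.6 CPM (log2 fold change 2.03 ± 0.33, SE, adjusted p = 6.29e-05). *Ccr7*, with which dendritic cells migrate to lymph nodes, measured 265, 458 and 263 against 44.9, 0.586 and 10.03 CPM (log2 fold change 4.17 ± 0.68, SE, adjusted p = 6.56e-05). The replicates did not overlap in any of the 3. Dendritic cell markers as a list were not uniform, with 3 of 7 called higher, *Ccr7* included, 4 not passing the test, and *Flt3*, the growth factor receptor of dendritic cells, at 7.95, 42.2 and 12.4 against 52.2, 36.9 and 40.3 CPM (adjusted p = 0.293). The log2 fold change of *Ccr7* was 5.64 without blood replicate 22 and 3.54 without blood replicate 23.

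Interleukin-1 genes rose together with their antagonists. Of 12 genes of the interleukin-1 family and the inflammasome 6 were called higher (1 of them negative under spike-in scaling) and 6 did not pass the test, with a median log2 fold change of 1.01. *Il1b*, the secreted cytokine, measured 3505, 1910.3 and 3349 CPM in GFPpos and 146, 73.8 and 44.3 CPM in blood (log2 fold change 5.06 ± 0.65, SE, adjusted p = 2.73e-06). The receptor antagonist *Il1rn* measured 1713, 1549 and 917 against 44.4, 52.1 and 31.8 CPM (log2 fold change 5.03 ± 0.63, SE, adjusted p = 2.2e-06). The decoy receptor *Il1r2* measured 252, 148 and 327 against 20.8, 0.586 and 3.76 CPM (log2 fold change 4.91 ± 1.03, SE, adjusted p = 0.00102) and the interleukin-18 binding protein *Il18bp* measured 787, 381 and 242 against 5.62, 18.7 and 5.02 CPM (log2 fold change 5.64 ± 0.88, SE, adjusted p = 3.63e-05). The groups did not overlap in these 4 genes. The sensor *Nlrp3* measured 22.8, 15 and 51.8 against 10.1, 11.1 and 27.4 CPM and the protease *Casp1*, which cleaves pro-interleukin-1β, measured 211, 181 and 67.2 against 122, 126 and 115 CPM. Neither passed the test (adjusted p = 0.525 and 0.524). With blood replicate 22 or 23 left out that of *Il1r2* was 6.44 and 4.32, and with GFPpos replicate 22 or blood replicate 23 left out that of *Il18bp* was 4.98 and 6.37.

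Other inflammatory mediators showed the same direction, with 7 of 11 tested genes called higher (1 of them negative under spike-in scaling), 1 lower (*Alox5ap*), 3 not passing the test and a median log2 fold change of 4.75, or 4.30 with bounds. *Tnf* measured 137, 161 and 216 CPM in GFPpos and 3.93, 4.69 and 9.41 CPM in blood (log2 fold change 4.75 ± 0.91, SE, adjusted p = 0.000422). *Osm*, oncostatin M of the interleukin-6 family, measured 479.6, 1068 and 806 against 6.18, 11.7 and 6.9 CPM (log2 fold change 6.58 ± 0.73, SE, adjusted p = 3.59e-07). Both stood above every blood replicate in all 3 mice. *Il6* measured 9.38, 70.8 and 24 CPM and *Nos2*, the inducible nitric oxide synthase, measured 54.4, 37.5 and 139 CPM, both with no read in blood (adjusted p = 0.000245 and 0.00146). *Ptgs2*, the cyclooxygenase that starts prostaglandin synthesis, measured 83.6, 186 and 1005 against 4.49, 0 and 0 CPM (log2 fold change 8.49 ± 1.96, SE, adjusted p = 0.00277). Mouse 26 was the highest for *Nos2* and *Ptgs2* and mouse 24 for *Il6*. All blood reads of *Ptgs2* were in replicate 22, and its fitted log2 fold change was 13.22 without that replicate, 7.51 without blood replicate 24 and 6.83 without GFPpos replicate 26.

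Regulatory and alternative activation genes did not move as 1 group. Of 14 genes 3 were called higher, 4 lower and 7 did not pass the test, with a median log2 fold change of 0.05, and without GFPpos replicate 22 or 24 or blood replicate 23 the number lower was 2. Besides *Arg1*, *Il10* was called higher, at 17.3, 0 and 24 CPM with no read in blood (adjusted p = 0.00728), although mouse 24 had none. *Mrc1*, the mannose receptor, measured 51.8, 105 and 149.8 CPM in GFPpos and 5.62, 18.7 and 41.2 CPM in blood and did not pass the test (adjusted p = 0.122), but did so with the mouse as a replicate block (log2 fold change 1.79, adjusted p = 0.0312). *Il4ra* measured 421, 534 and 647 against 204, 271 and 253 CPM (adjusted p = 0.174). For both receptors every GFPpos value was above every blood value. *Tnfrsf1b*, the second TNF receptor, fell from 1953, 1839 and 2279 to 295, 526 and 577 CPM (log2 fold change -2.12 ± 0.44, SE, adjusted p = 0.000998). *Chil3* (Ym1), a chitinase-like protein, measured 155, 269.7 and 549 against 1731, 5491 and 1110.4 CPM and was called lower (adjusted p = 0.0348), a call lost without GFPpos replicate 22 or 24 or blood replicate 23 (adjusted p = 0.115, 0.0913 and 0.164).

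In arginine, polyamine and itaconate metabolism 8 of 11 genes were called higher and 3 did not pass the test, with a median log2 fold change of 5.38, or 5.0 with bounds. *Irg1* (now Acod1), which makes itaconate, measured 474, 259 and 239 CPM in GFPpos and 0, 1.17 and 0 CPM in blood (adjusted p = 2.94e-09). The cystine and glutamate exchanger is a pair of proteins, and its specific chain *Slc7a11* measured 95.2, 136 and 102 against 0.562, 0 and 0.209 CPM (adjusted p = 6.22e-08) while the shared heavy chain *Slc3a2* measured 244, 536 and 592 against 71.9, 77.3 and 60.6 CPM (log2 fold change 2.71 ± 0.38, SE, adjusted p = 9.07e-06). *Odc1*, which makes putrescine from the ornithine that arginase yields, measured 23, 15.7 and 46.5 against 0.562, 0 and 1.05 CPM (adjusted p = 6.41e-05). The groups were apart in all 4. *Sat1*, of polyamine breakdown, measured 851, 835 and 554 against 1181, 1051 and 718 CPM and did not pass the test (adjusted p = 0.189).

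Antigen presentation by MHC class II was higher in 8 of 9 genes relative to the other transcripts (1 did not pass the test), with a median log2 fold change of 1.77, although 4 of the 8 (*H2-DMa*, *H2-DMb1*, *Cd74* and *Ctss*) had a negative log2 fold change under spike-in scaling. *H2-Eb1*, a β chain of the class II molecule, measured 7255, 5676 and 2632 CPM in GFPpos and 545, 609.8 and 476 CPM in blood (log2 fold change 3.26 ± 0.39, SE, adjusted p = 1.36e-06). *H2-Ab1* measured 7767, 15934 and 5319 against 2272, 2284 and 1516 CPM (log2 fold change 2.26 ± 0.39, SE, adjusted p = 0.000155) and *H2-Aa*, an α chain, measured 10050.1, 7259 and 3277 against 1284, 1474 and 1119 CPM (log2 fold change 2.41 ± 0.39, SE, adjusted p = 6.97e-05). *Cd74*, the invariant chain, measured 30242, 24401 and 10178 against 7076, 7319 and 4593 CPM (log2 fold change 1.77 ± 0.41, SE, adjusted p = 0.00234). Mouse 26 was the lowest of the GFPpos replicates for every one of these genes, and still above all blood replicates. *H2-DMa*, which loads peptides, measured 2566, 1946 and 669 against 578, 961 and 603 CPM (adjusted p = 0.043), and its call was lost without GFPpos replicate 22 or 24 or any 1 blood replicate (adjusted p from 0.0574 to 0.275). *Ciita*, the master regulator of class II genes, measured 127, 109.6 and 39.4 against 64.6, 88.4 and 81.1 CPM and did not pass the test (adjusted p = 0.734). H2 genes share sequence, and reads that match more than 1 of them can be lost or misassigned. *H2-Ab1* had a log2 fold change of 1.62 without GFPpos replicate 24. The calls of *H2-Eb1*, *H2-Ab1* and *H2-Aa* were each lost under 1 of the alternatives (adjusted p = 0.277, 0.791 and 0.766).

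Of 10 genes of MHC class I presentation 8 were called higher and 2 did not pass the test, with a median log2 fold change of 1.02, and all 8 had a negative log2 fold change under spike-in scaling. Without GFPpos replicate 24, blood replicate 22 or blood replicate 24 the number higher was 4. *B2m*, the light chain, measured 12065, 9119.7 and 5023 CPM in GFPpos and 3579.6, 3225 and 2688 CPM in blood (log2 fold change 1.47 ± 0.27, SE, adjusted p = 0.00027). The peptide transporter subunit *Tap2* measured 1103, 834 and 458 against 219, 279 and 286 CPM (log2 fold change 1.61 ± 0.33, SE, adjusted p = 0.000806). The immunoproteasome subunit *Psmb9* measured 776, 693 and 384 against 189.9, 209 and 185 CPM (log2 fold change 1.67 ± 0.31, SE, adjusted p = 0.00031). The replicates of these 3 did not overlap. The heavy chain gene *H2-D1* measured 3409.6, 9270.2 and 5243 against 6296, 6614 and 5074 CPM (adjusted p = 0.995), the GFPpos values on both sides of those of blood.

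Genes of T cell costimulation and of checkpoints, the receptors *Cd40* and *Havcr2* among them, rose with them. Of 10 genes 8 were called higher and 2 did not pass the test, with a median log2 fold change of 2.41. Of the 8, *Cd40*, *Lgals9* and *Havcr2* had a negative value under spike-in scaling. *Cd274* (PD-L1) measured 186, 231 and 232 CPM in GFPpos and 19.7, 5.86 and 14.2 CPM in blood (log2 fold change 4.02 ± 0.61, SE, adjusted p = 3.05e-05). *Cd86* measured 415, 420.2 and 179 against 53.9, 76.7 and 55.8 CPM (log2 fold change 2.44 ± 0.34, SE, adjusted p = 9.24e-06). *Cd40* measured 456, 419 and 81.8 against 44.9, 60.9 and 65.6 CPM (log2 fold change 2.48 ± 0.64, SE, adjusted p = 0.00642), with mouse 26 near the blood values. *Lgals9* (galectin-9) measured 1477, 1215 and 667 against 345, 442 and 353 CPM (log2 fold change 1.56 ± 0.27, SE, adjusted p = 0.000168), and *Havcr2* (TIM-3) measured 199, 214 and 90.1 against 93.3, 34 and 74 CPM, a call (adjusted p = 0.00495) that was lost without blood replicate 23 (adjusted p = 0.0702).

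**Figure D4:**
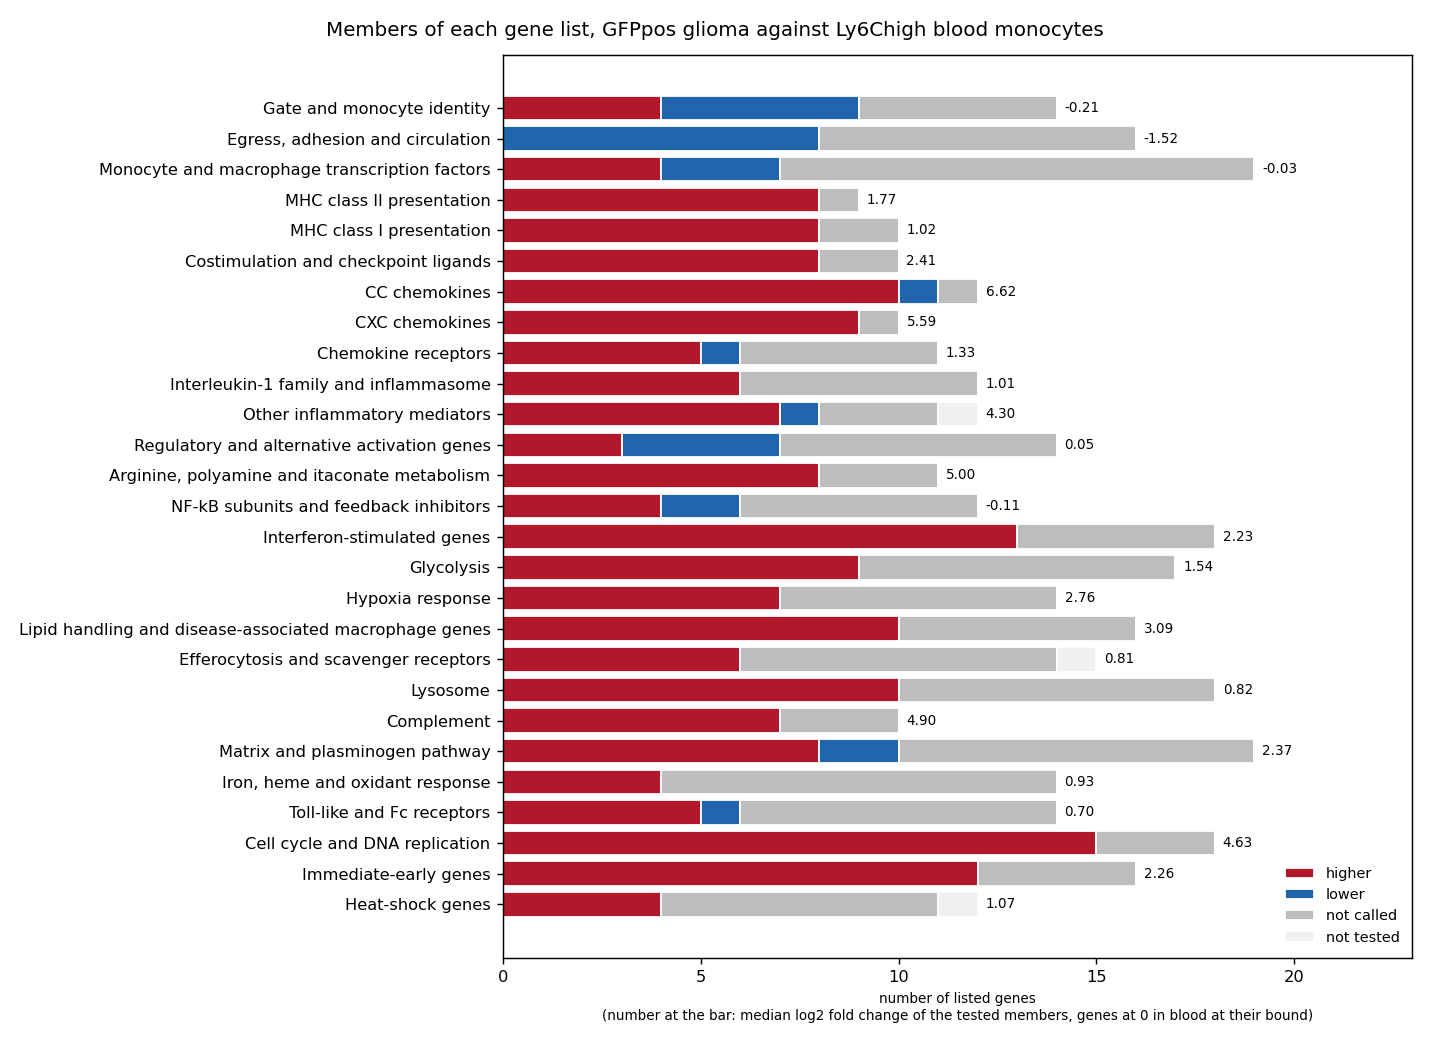
Number of genes of each gene list (x axis) called higher in GFPpos glioma monocytes (red), called lower (blue), tested and not called (grey) or not tested (pale grey), with the median log2 fold change of the tested members printed at the end of each bar. Medians run from -1.52 for the egress, adhesion and circulation genes, none of which was called higher, to 6.62 for the CC chemokines, in a scaling that differs from that to the spike-in RNAs, under which 398 of all the genes called higher turn negative.

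Interferon-stimulated genes were higher in 13 of 18 (5 did not pass the test), with a median log2 fold change of 2.23, and 3 of the 13, *Irf7* and *Gbp3* among them, had a negative value under spike-in scaling. *Isg15*, a ubiquitin-like modifier, measured 969, 605 and 338 CPM in GFPpos and 49.4, 65 and 53.5 CPM in blood (log2 fold change 3.51 ± 0.48, SE, adjusted p = 7.09e-06). *Ifit1*, a sensor of foreign RNA caps, measured 460.02, 260.2 and 164 against 33.7, 21.1 and 61.2 CPM (log2 fold change 2.91 ± 0.46, SE, adjusted p = 5.09e-05). *Bst2* (tetherin) measured 827, 642 and 548 against 74.2, 101 and 116 CPM (log2 fold change 2.79 ± 0.24, SE, adjusted p = 4.07e-09), and the guanylate-binding protein gene *Gbp2* measured 1423, 955 and 509 against 48.3, 145 and 122 CPM (log2 fold change 3.19 ± 0.43, SE, adjusted p = 6.13e-06). The groups did not overlap in these genes, and mouse 26 was the lowest GFPpos replicate in all of them. The factor *Irf7* measured 2489, 1989 and 863 against 338, 402 and 463 CPM (log2 fold change 2.15 ± 0.36, SE, adjusted p = 8.26e-05) and *Gbp3* measured 463, 314 and 318 against 83.1, 166 and 135 CPM (log2 fold change 1.51 ± 0.38, SE, adjusted p = 0.005). *Irf1* measured 399, 321 and 247 against 248, 363 and 433 CPM (adjusted p = 0.846). *Bst2* had a positive log2 fold change of 0.98 under spike-in scaling but lost its call (adjusted p = 0.389). The calls of *Isg15*, *Ifit1* and *Gbp2* were each lost under 1 of the alternatives (adjusted p = 0.216, 0.638 and 0.343).

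The interferon-stimulated response element is the sequence to which interferon-activated factors bind. Its letters, GAAA followed by any 2 bases and GAAA again, were searched on both strands of the 250 bases before each start. They were in 9 of 15 listed genes with a promoter entry (60%) and in 8 of the 11 that were called higher (72.7%), against 3.47% of all 26977 promoters and 3.64% of those of tested genes. The list holds known interferon targets, so the match describes the list and not these cells. The 30 bases around the element are shown for 5 called genes, read on the strand of the gene with the element in capitals, where TTTC marks an element on the opposite strand.

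Isg15 (chr4:156200865-156200894, minus strand, GRCm38.p6): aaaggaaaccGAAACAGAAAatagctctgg
Ifit1 (chr19:34640794-34640823, plus strand, GRCm38.p6): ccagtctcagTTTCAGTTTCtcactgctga
Ifit3 (chr19:34583397-34583426, plus strand, GRCm38.p6): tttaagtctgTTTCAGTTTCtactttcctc
Bst2 (chr8:71537577-71537606, minus strand, GRCm38.p6): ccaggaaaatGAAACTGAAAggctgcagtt
Gbp2 (chr3:142620594-142620623, plus strand, GRCm38.p6): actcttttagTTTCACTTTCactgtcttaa

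The *Ifit1* and *Ifit3* promoters hold the same 10 letters. *Ifit3* measured 390.3, 331 and 185 CPM in GFPpos and 25.8, 52.1 and 102 CPM in blood (log2 fold change 2.32 ± 0.51, SE, adjusted p = 0.00154), and its log2 fold change was 0.00 under spike-in scaling. Without blood replicate 24 its log2 fold change was 2.95.

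Glycolytic genes were higher in 9 of 17 (8 did not pass the test), with a median log2 fold change of 1.54, and 2 of the 9 had a negative value under spike-in scaling. *Slc2a1*, the glucose transporter GLUT1, measured 577, 306 and 1091 CPM in GFPpos and 47.2, 53.9 and 61 CPM in blood (log2 fold change 3.60 ± 0.89, SE, adjusted p = 0.00432). *Tpi1* measured 1439, 842 and 1413 against 235, 272 and 217 CPM (log2 fold change 2.35 ± 0.42, SE, adjusted p = 0.000177). *Gapdh* measured 3279.7, 1619.5 and 2558 against 869, 831 and 548 CPM (log2 fold change 1.73 ± 0.24, SE, adjusted p = 7.68e-06) and *Ldha*, which makes lactate, measured 2546, 2459 and 2400.4 against 932, 954 and 511 CPM (log2 fold change 1.63 ± 0.26, SE, adjusted p = 4.82e-05). All GFPpos replicates of the 4 genes were above all blood replicates. *Eno1* measured 2145, 1669.9 and 2122 against 1741, 1669 and 1144 CPM and did not pass the test (adjusted p = 0.201). *Pkm*, the last step of the pathway, measured 2762, 2064 and 2907 against 1537, 1768 and 1387 CPM (adjusted p = 0.0612) and rose with the mouse as a replicate block (log2 fold change 0.64, adjusted p = 0.00836).

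Of 14 hypoxia response genes 7 were called higher and 7 did not pass the test, with a median log2 fold change of 2.84, or 2.76 with bounds. *Vegfa*, the vessel growth factor, measured 22, 36.8 and 67.9 CPM in GFPpos with no read in blood (adjusted p = 2.88e-06). *Hilpda*, a lipid droplet protein, measured 102, 96.7 and 301 against 10.1, 5.27 and 7.11 CPM (log2 fold change 4.47 ± 1.04, SE, adjusted p = 0.00258). The cytokine *Mif* measured 714, 351 and 547 against 41.6, 29.3 and 28.6 CPM (log2 fold change 4.02 ± 0.35, SE, adjusted p = 7.6e-09). Mouse 26 was the highest for *Vegfa* and *Hilpda*. In other genes of the list mouse 26 stood alone. *Ero1l*, an oxidase of the endoplasmic reticulum, measured 11.4, 5.45 and 282 CPM in GFPpos and 42.7, 21.7 and 38.5 CPM in blood, and *Egln3*, an oxygen-sensing hydroxylase, measured 3.06, 6.81 and 84.5 against 5.06, 0.586 and 2.3 CPM. Neither passed the test (adjusted p = 0.298 and 0.0719). The core letters of the hypoxia response element, ACGTG on either strand, were in the promoters of 9 of 12 listed genes with an entry (75%), in 18.5% of all promoters and in 25.5% of those of tested genes. Among all genes called higher the share was 24.8%. The list was chosen as hypoxia response genes, so the match describes the list and not these cells. Leaving out mouse 26 gave *Hilpda* a log2 fold change of 3.73.

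Lipid-handling genes and genes known from disease-associated macrophages were higher in 10 of 16 (1 of them negative under spike-in scaling) and 6 did not pass the test, with a median log2 fold change of 3.09. *Gpnmb*, a lysosomal glycoprotein, measured 1728, 721 and 3268 CPM in GFPpos and had 3 reads in blood, a ratio of 5564 (counting interval 1904 to 26985, adjusted p = 2.46e-07). *Spp1* (osteopontin) measured 982, 561 and 1739 against 4.49, 0 and 0.627 CPM (log2 fold change 9.50 ± 1.08, SE, adjusted p = 4.88e-07). *Trem2*, a lipid receptor of macrophages and microglia, measured 583, 471 and 337 against 44.4, 75 and 58.3 CPM (log2 fold change 2.97 ± 0.39, SE, adjusted p = 3.75e-06), and the tetraspanin *Cd9* measured 955, 783 and 871 against 102, 16.4 and 29.7 CPM (log2 fold change 4.15 ± 0.43, SE, adjusted p = 9.83e-08). Mouse 26 had the most *Gpnmb* and *Spp1* and the least *Trem2*. The adaptor *Tyrobp*, which pairs with TREM2, measured 2029.9, 1651 and 843 against 2212, 2545 and 1606 CPM (adjusted p = 0.183). *Apoe* measured 4415, 3082 and 6046 against 4089.7, 3652 and 2428 CPM (adjusted p = 0.587). Neither passed the test. For *Spp1* the log2 fold change was 11.04 without blood replicate 22 and 8.88 without blood replicate 24, and for *Cd9* it was 5.11 without blood replicate 22.

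Lysosomal genes were higher in 10 of 18 (8 did not pass the test), with a median log2 fold change of 0.82, and 5 of the 10 had a negative value under spike-in scaling. The proteases *Ctsd*, *Ctsl* and *Lgmn* had a positive value under it but lost their call (adjusted p = 0.168, 0.138 and 0.169). *Ctsd* measured 8578, 8084 and 5590.1 CPM in GFPpos and 702, 765 and 548 CPM in blood (log2 fold change 3.47 ± 0.25, SE, adjusted p = 3.22e-10). *Ctsl* measured 933, 517 and 1101 against 84.3, 78.5 and 50.6 CPM (log2 fold change 3.59 ± 0.51, SE, adjusted p = 1.23e-05). *Lgmn* measured 2272, 1052 and 1400.5 against 165, 142 and 129 CPM (log2 fold change 3.44 ± 0.36, SE, adjusted p = 1.33e-07). *Lamp2*, a membrane protein of all lysosomes, measured 751, 997 and 845 against 1052, 1251 and 909.9 CPM and *Psap*, the precursor of saposins, measured 6365, 6611 and 4443 against 7702, 9209.9 and 9488 CPM. Neither passed the test (adjusted p = 0.298 and 0.0987).

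Genes for the uptake of dying cells, listed together with scavenger and lectin receptors, were higher in 6 of 14 tested genes (8 did not pass the test). Their median log2 fold change was 0.81. *Axl* measured 633, 1198 and 753 CPM in GFPpos and 71.9, 73.8 and 133 CPM in blood (log2 fold change 3.20 ± 0.39, SE, adjusted p = 1.39e-06). *Gas6*, the ligand that links AXL and MERTK to phosphatidylserine, measured 12.8, 9.53 and 24 CPM with no read in blood (adjusted p = 0.000348). *Clec4n* (dectin-2), a lectin for fungal mannans, measured 505, 477 and 287 against 29.2, 31 and 7.73 CPM (log2 fold change 4.26 ± 0.68, SE, adjusted p = 5.67e-05). *Cd36*, the scavenger receptor of oxidized lipids, measured 93.2, 108 and 37.9 against 162, 38.1 and 54.3 CPM (adjusted p = 0.921). *Cd68* measured 2200.2, 1313 and 979 against 1310.1, 1478 and 1066 CPM (adjusted p = 0.497), with overlapping groups.

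Complement genes were higher in 7 of 10 (3 did not pass the test), with a median log2 fold change of 4.97, or 4.90 with bounds. The 3 chains of C1q rose together. *C1qa* measured 3383, 2871 and 1659 CPM in GFPpos and 16.9, 2.93 and 1.67 CPM in blood (log2 fold change 8.64 ± 0.69, SE, adjusted p = 1.6e-09). *C1qb* measured 7299.8, 6163 and 3179 against 76.4, 52.1 and 12.5 CPM (log2 fold change 6.90 ± 0.59, SE, adjusted p = 5.55e-09). *C1qc* measured 4869.6, 5354 and 2662 against 29.2, 18.2 and 3.76 CPM (log2 fold change 8.04 ± 0.63, SE, adjusted p = 1.29e-09). C1q is made by tissue macrophages and strongly by microglia, whose markers rose in the same replicates. The receptor *C3ar1* measured 932, 400.4 and 689.9 against 13.5, 31.6 and 10.9 CPM (log2 fold change 5.20 ± 0.64, SE, adjusted p = 1.6e-06) and factor B, *Cfb*, measured 455, 281 and 122 against 5.06, 19.3 and 8.15 CPM (log2 fold change 4.74 ± 0.58, SE, adjusted p = 1.41e-06). *C3* itself measured 616, 343 and 257 against 614, 947 and 1112 CPM (adjusted p = 0.0546) and was called lower with the mouse as a replicate block (log2 fold change -1.31, adjusted p = 0.0172). Without blood replicate 22 the values of *C1qa* and *C1qc* were 10.16 and 8.65 on the log2 scale, and without blood replicate 24 that of *C1qa* was 8.04.

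Matrix genes moved in both directions. Of 19 genes 8 were called higher, 2 lower and 9 did not pass the test, with a median log2 fold change of 2.37, and without GFPpos replicate 26 or with the mouse as a replicate block the number lower was 4. The metalloproteases *Mmp12* and *Mmp13* measured 105, 178 and 113 and 173, 112 and 109 CPM in GFPpos and 0, 0 and 1.25 and 0, 0 and 0.836 CPM in blood (adjusted p = 2.64e-05 and 5.92e-08). *Mmp14*, a membrane-bound one, measured 216, 53.1 and 189.9 against 5.06, 4.1 and 0 CPM (log2 fold change 5.91 ± 1.09, SE, adjusted p = 0.000265). By contrast *Mmp8*, the collagenase stored by neutrophils and monocytes, fell from 829, 660.1 and 244 to 40.8, 49.7 and 31.5 CPM (log2 fold change -3.83 ± 0.87, SE, adjusted p = 0.00222). *F13a1*, the coagulation factor XIII A chain, fell from 4831, 5043 and 4038 to 114, 74.2 and 438 CPM (log2 fold change -4.47 ± 1.26, SE, adjusted p = 0.0111). Both lay far below the blood values in every GFPpos replicate. *Fn1*, fibronectin, measured 250.2, 221 and 958 against 1466, 3158 and 5032 CPM and *Vcan*, versican, measured 4.49, 0 and 37.9 against 139.9, 192 and 93.4 CPM. Neither passed the test (adjusted p = 0.0708 and 0.0753), mouse 26 being the highest for both, and both were called lower with the mouse as a replicate block (log2 fold changes -3.76 and -4.57, adjusted p = 8.3e-05 and 0.00764). *Sparc* and other matrix genes are also made by endothelial and glioma cells, whose markers were highest in mouse 26. *Mmp14* had a log2 fold change of 6.65 without blood replicate 22 and 5.05 without blood replicate 24, and *F13a1* had one of -5.62 without GFPpos replicate 26.

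Among 14 Toll-like and Fc receptor genes 5 were called higher, 1 lower and 8 did not pass the test, with a median log2 fold change of 0.70, and 3 of the 5 had a negative value under spike-in scaling. *Fcgr4*, an activating IgG receptor, measured 876, 473 and 432 CPM in GFPpos and 97.2, 43.9 and 32.2 CPM in blood (log2 fold change 3.37 ± 0.37, SE, adjusted p = 3.05e-07). *Tlr4*, the lipopolysaccharide receptor, measured 72.2, 56.5 and 97.2 against 73, 127 and 79.2 CPM (adjusted p = 0.794), although its co-receptor gene *Cd14* rose. *Tlr7* measured 83.2, 83.8 and 71.7 against 229, 113 and 200.3 CPM. *Tlr13* measured 163, 169 and 211 against 401, 504 and 582 CPM, and both are endosomal RNA sensors. They did not pass the test (adjusted p = 0.075 and 0.0521) but were called lower with the mouse as a replicate block (adjusted p = 0.0225 and 0.00358), which brought the number lower to 3. Without GFPpos replicate 22 or 24 or blood replicate 24 it was 0. Of 14 iron, heme and oxidant response genes 4 were called higher (1 of them negative under spike-in scaling) and 10 did not pass the test, with a median log2 fold change of 0.93, and the number higher was 2 without GFPpos replicate 22 or blood replicate 24 and 1 without blood replicate 23. *Tfrc*, the transferrin receptor, measured 23.7, 38.1 and 30.8 against 0, 0 and 0.418 CPM (adjusted p = 2.64e-05), whereas *Hmox1*, heme oxygenase 1, measured 547, 151 and 950.4 against 317, 269 and 157 CPM (adjusted p = 0.374).

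Cell cycle and replication genes were higher in 15 of 18 (3 did not pass the test), with a median log2 fold change of 4.80, or 4.63 with bounds. *Top2a*, the topoisomerase of dividing cells, measured 37.3, 77.6 and 214 CPM in GFPpos and 3.37, 0 and 0 CPM in blood (log2 fold change 6.93 ± 1.23, SE, adjusted p = 0.000175). *Cdk1*, the mitotic kinase, measured 68.1, 25.2 and 170.4 against 1.69, 0 and 0 CPM (adjusted p = 1.03e-05), and *Birc5* (survivin) measured 50.6, 15 and 76.2 CPM with no read in blood (adjusted p = 6.56e-06). Mouse 26 was the highest in all 3. The replication gene *Pcna* was more even, at 121, 124 and 104 against 41, 35.7 and 34.5 CPM (log2 fold change 1.65 ± 0.23, SE, adjusted p = 1.15e-05). *Mki67* measured 28.1, 8.85 and 25.5 against 0, 9.37 and 3.55 CPM and did not pass the test (adjusted p = 0.0638). Markers of neural progenitors and glioma cells summed to 81.2, 10.2 and 176 CPM in the same GFPpos replicates, and T and NK cell markers to 1475, 1916 and 656 CPM. Which of the cells in the sort were dividing was not tested. All blood reads of *Top2a* were in replicate 22, and its fitted log2 fold change was 11.26 without that replicate, 5.96 without blood replicate 24 and 5.99 without GFPpos replicate 26.

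Immediate-early genes were higher in 12 of 16 (7 without blood replicate 23), while 4 did not pass the test, with a median log2 fold change of 2.26, and 2 of the 12 had a negative value under spike-in scaling. *Fos* measured 4877, 6161 and 3120.3 CPM in GFPpos and 279, 429.9 and 629.8 CPM in blood (log2 fold change 3.40 ± 0.43, SE, adjusted p = 2.48e-06). *Egr1* measured 89.1, 34.1 and 318 against 18.5, 2.34 and 10.7 CPM (log2 fold change 3.80 ± 0.96, SE, adjusted p = 0.00511). *Zfp36*, which destabilizes cytokine mRNAs, measured 4270.3, 4169 and 2039.7 against 540.4, 600.4 and 639 CPM (log2 fold change 2.56 ± 0.32, SE, adjusted p = 2.48e-06). *Jun* and *Ier2* measured 93, 63.3 and 244 and 134, 225 and 527 CPM against 31.5, 27.5 and 43.1 and 386, 349 and 336 CPM and did not pass the test (adjusted p = 0.165 and 0.759). Heat-shock genes were higher in 4 of 11 tested (7 did not pass the test), with a median log2 fold change of 1.07, 2 of the 4 being negative under spike-in scaling. The inducible chaperone genes *Hspa1a* and *Hspa1b*, near copies whose shared reads can be lost or misassigned, measured 10.6, 44.3 and 26.7 and 2.65, 12.3 and 49.5 CPM against 24.7, 5.86 and 7.73 and 42.1, 14.6 and 6.27 CPM (adjusted p = 0.416 and 0.982). Enzymatic digestion at 37 °C, known to induce genes of both lists, was applied to the brain cells only, and its part cannot be told apart from that of the tissue. Without GFPpos replicate 26 that of *Egr1* was 2.56 on the log2 scale.

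GFPneg glioma monocytes of the same 3 mice went through the same digestion and gate, apart from GFP. They share the blood replicates with the comparison above, so their levels are given side by side. No gene was called between GFPpos and GFPneg glioma monocytes (0% of 11566, smallest adjusted p = 0.147, and 739 genes, 6.39%, at an unadjusted p under 0.05), while DESeq2 called 21. *Ccr2* measured 802, 588 and 953 CPM in GFPneg monocytes, between the 351, 229 and 273 CPM of GFPpos and the 1890.4, 2384 and 1906 CPM of blood (GFPpos minus GFPneg log2 fold change -1.46 ± 0.49, SE, adjusted p = 0.639). *Cd63* measured 522, 349.6 and 675 CPM in GFPneg monocytes against 1349, 1032 and 1104 CPM in GFPpos (log2 fold change 1.17 ± 0.38, SE, adjusted p = 0.639). *Gpnmb* measured 1259, 250.02 and 1591 against 1728, 721 and 3268 CPM (0.88 ± 0.74, SE, adjusted p = 0.89). *Arg1* measured 290.5, 473 and 2648 CPM, with mouse 26 again the highest, and *Il1b* measured 3350.01, 2968 and 6021 CPM. Of the 18 cell cycle genes 17 had a higher mean in GFPpos than in GFPneg monocytes, as did 13 of 18 lysosomal genes, 8 of 9 MHC class II genes and 11 of 16 lipid-handling genes, against 1 of 18 interferon-stimulated genes, 1 of 16 immediate-early genes, 1 of 12 NF-kB genes and 2 of 14 regulatory genes. Over all 11566 tested genes the share with a higher mean in GFPpos was 53.6%, and no member of these groups passed the test. Some lists not named here lay nearer this share, such as CC chemokines (5 of 12) and heat-shock genes (5 of 11 tested). The genes of a list are not independent of each other. The markers of neural progenitors and glioma cells summed to 39.1, 5.89 and 87.7 CPM in GFPneg replicates against 81.2, 10.2 and 176 CPM in GFPpos replicates. Microglia markers summed to 1769, 3066 and 1983 CPM against 2624, 3981 and 3139.8 CPM. Both sums were higher in GFPpos than in GFPneg monocytes of each of the 3 mice.

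Some genes were far from even across the 3 GFPpos replicates. The genes named here beyond the lists, *Col2a1* and *Col3a1*, were chosen after their values were seen. In mouse 26 the cartilage and fibrillar collagens *Col2a1* and *Col3a1* measured 321 and 308 CPM, against at most 6.93 and 6.73 CPM in mice 22 and 24. *Thbs1*, thrombospondin 1, measured 109.5, 122 and 1694 CPM in GFPpos and 38.2, 35.1 and 27.4 CPM in blood. It did not pass the test (adjusted p = 0.118) and did so with the mouse as a replicate block (log2 fold change 1.82, adjusted p = 0.0188). In mouse 24 the neutrophil granule genes *Ngp* and *Ltf* measured 975 and 449 CPM, against at most 0 and 10.8 CPM in the others. The heavy chain gene *Igha*, of IgA, measured 786, 399 and 0 CPM and had no read in blood, and its call (adjusted p = 0.0297) was lost without GFPpos replicate 22 or any 1 blood replicate (adjusted p from 0.0607 to 0.109). In GFPneg monocytes *Ngp* measured 0, 391 and 72.9 CPM, *Ltf* 0, 158 and 43.2 CPM and *Thbs1* 586, 290 and 7208 CPM. There *Col2a1* measured 14, 0 and 45.8 CPM, *Col3a1* 6.02, 0 and 74.8 CPM and *Igha* 141, 1715 and 860 CPM. The highest mouse was the same in both populations for each of these genes except *Igha*.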

How the data were processed

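The authors deposited whole-number read counts per gene for 30 libraries of 8 sorted populations, without normalization. Per the labels and the methods, reads were aligned with STAR, duplicates were removed with Picard (1.8.4 in the submitters' notes) and counting used htseq-count on a Gencode GRCm38.p3 annotation. The strand setting is not given in the sources used here. Reads on no gene (8.43% to 12.5%) and on overlapping genes (1.63% to 1.83%) stayed out of library sizes. Of the deposited columns 0 were left unused. The methods' rule of 6000 genes at 5 or more reads removed 1 library, of another population.

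Counts were fitted in edgeR 4.0.16 (R 4.3.3) with TMM, filterByExpr and the robust quasi-likelihood test over 28 replicates of 8 populations, which share 1 estimate of the spread. Calls used a Benjamini-Hochberg adjusted p under 0.05 over 11566 genes. The SE is the size of the log2 fold change divided by the square root of F. CPM used the TMM-scaled library size. A gene at 0 in every library of a population was set to 3 counts per library for bounds, and a total of 1 to 3 counts is given as a ratio with an exact 95% interval. All 3 replicates of each population were from separate mice and differed beyond sampling noise (chi-square over its degrees of freedom 6.26 to 50.76).

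Mice 22 and 24 gave both populations, so mouse numbers pair samples. Deviations from the group means correlated at 0.061 and -0.016 within these pairs. Genes named are the 8 with the largest fitted change and the 5 with the smallest p in each direction (called, mean of at least 10 CPM, for the 8 no overlap), and members of 41 lists. The population, lists and rule were chosen with earlier results of these data known. All 447 listed symbols matched, 3 through a RefSeq synonym. Positions are those of GENCODE vM21 (96.1% of tested genes) and sequences those of RefSeq GRCm38.p6. The alternatives were DESeq2 1.42.0 (test or size factors), spike-in scaling, filters of 1 or 10 counts, fewer populations, a replicate block, either library of mouse 22, and each replicate left out. Some listed genes are counted in their lists and not reported here by name. The code was tested on simulated data.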

Additional observations from a re-analysis of the deposited data

How the results depend on the processing

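Directions held for all named called genes under every alternative except spike-in scaling, but counts depended on the fit. The main fit called 2673 genes (1971 higher, 702 lower). Spike-in scaling called 572 (300 and 272), of which 550 were main calls in the same direction. The filter of at least 10 counts in every replicate called 1300 (669 higher), of which 1099 were such main calls. A fit of the compared populations alone called 1726 (1094 higher), of which 1547 were main calls. The fit with only the 4 monocyte populations, an alternative chosen after seeing the data, called 1033 (729 and 304). Of these 1030 were main calls. The share of calls that were higher was 73.7%, and it fell to 52.4% under spike-in scaling, 51.5% with the filter of 10 counts, which removes the genes without reads in blood, and 63.4% in that of the compared populations. The replicate block by mouse gave 2996 (2095 and 901), of which 2483 were called in the same direction as without it. In the paired fit 11 genes named in the text gained a call, each given above or, for *Col3a1*, at an adjusted p of 0.0135, and 0 lost it. DESeq2 called 3364. With 1 replicate left out the counts ranged from 1685 to 2430 called, 1217 to 1814 higher and 468 to 732 lower, lowest without blood replicate 24, the deepest blood library. Without blood replicate 23, 1252 were higher. With mouse 22 represented by its first or second library alone, 2195 and 2581 were called. Between GFPpos and GFPneg monocytes DESeq2 called 21, and leaving out 1 replicate gave 0 to 1 in edgeR.

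Under spike-in scaling these called genes turned negative in log2 fold change: *B2m* -0.51, *Cd40* -0.21, *Cd74* -0.27, *Ctss* -0.54, *Gbp3* -0.12, *H2-DMa* -0.93, *H2-DMb1* -0.42, *Havcr2* -0.95, *Irf7* -0.12, *Lgals9* -0.40, *Psmb9* -0.29 and *Tap2* -0.48. A further 61 named genes lost their call under it without a change of direction. The cause was not tested. Of 109 named called genes with more than 3 counts in each population, 36 had a fold change that moved over 1.5 times when 1 replicate was left out, most often blood replicate 22 or 24 (14 genes each). The moves were largest, at 10.8 to 26.5 times, for *Ptgs2*, *Mertk*, *Top2a*, *Mmp12* and *Mmp13*, whose blood reads came from 1 library each. Depth limits the genes without reads in a population to bounds, and 3 mice per population limit every test.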
